A study of Mus musculus with 4 samples.

Results

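The 9 genes described here are pseudogenes or recent duplicates whose transcripts resemble those of a parent or sister gene. They belong to 48 genes that the authors selected when they compared HT22 cells given a miR-712-3p mimic with control cells, and some other listed genes are pseudogenes with close copies too. The 9 are Gm6627, Srp54b, Entpd4, Gm7278 and Gm8607, which were lower with the mimic, and Gm2606, Alms1-ps2, Gm7551 and Gm4631, which were higher. They were taken by symbol for this resemblance from a table that was itself selected on the difference between mimic and control, so their mimic and control values are given as a description, with no test. By annotation, 6 of the 9 are pseudogenes and 3 (Srp54b, Entpd4 and Gm4631) are protein-coding.

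HT22 is an immortalised neuronal line from mouse hippocampus, labelled here as wild-type brain neurons. In 2 libraries the cells had received the mimic, that is, synthetic RNA made to do the work of miR-712-3p, which had been mixed with transfection reagent for 15 min and was left on the cells for 24 h. The other 2 libraries came from untreated control cells, whose medium was changed at the same times with neither reagent nor control RNA, so the comparison joins the mimic with the transfection. The treatment label of mimic replicate 2 reads miR-712-4p, which names no arm of the microRNA, where that of mimic replicate 1 reads miR-712-3p. The library columns of the control group are named NC, which the labels do not explain. The study speaks in general terms of independent repeats, but nothing ties these replicate libraries to separate cultures, so the spread between them may be technical. The neuronal label could not be checked against marker genes with these 48 genes. In RNA from a whole culture, fewer cells with a transcript and less of it per cell cannot be told apart.

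A processed pseudogene is a copy of a spliced messenger RNA that was reverse transcribed and inserted elsewhere in the genome, usually without introns or a promoter of its own. An unprocessed pseudogene is a duplicated piece of genomic DNA that usually keeps the introns of its parent. In both cases the bases of a short sequencing read tell the copy from the parent only where the sequences differ. Introns and the other read of a pair, which the comparisons of bases below leave out, can also affect where a read is placed. A read from an identical stretch is placed by the rules of the aligner and the counter. No source used here gives the rule that was applied to such reads.

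The stretches below show how much or how little tells some of the 9 genes from the gene they resemble. Each is exonic, has 25 bases, is written 5′ to 3′ along the transcript and was read from the annotated transcripts on GRCm38. Capitals mark the bases that differ, and a substitution is written as the base of the parent or sister, its position from the 5′ end of the stretch and the base of the listed gene.
Gm2606 (chr15:12575459-12575483, plus strand): ggaaagctgtggTgtgatggccgtg
Gapdh (chr6:125162633-125162657, minus strand): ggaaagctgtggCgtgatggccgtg
Srp54b (chr12:55177574-55177598, plus strand): gttggatgataaTGaggcacttata
Srp54c (chr12:55252818-55252842, plus strand): gttggatgataaCAaggcacttata
Alms1-ps2 (chr6:85779383-85779407, plus strand): actgagtgccccAtgagtttgaatg
Alms1 (chr6:85677939-85677963, plus strand): actgagtgccccGtgagtttgaatg
Gm6627 (chr10:52342286-52342310, minus strand): tttgatcgtggaAgcatgagcagag
Ewsr1 (chr11:5082284-5082308, minus strand): tttgatcgtggaGgcatgagcagag
Entpd4 (chr14:69358847-69358871, plus strand): ctgaattcaacctggggtgcgatgt
Entpd4b (chr14:69577097-69577121, plus strand): ctgaattcaacctggggtgcgatgt
Gm4631 (chr2:175325481-175325505, minus strand): taaccaatgtggaaaagcctttgca
Gm2026 (chr2:175978062-175978086, plus strand): taaccaatgtggaaaagcctttgca

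The substitution of Gm2606 (C13T) is the only base of its 1002 that differs from Gapdh, while Srp54b shows here a pair of adjacent substitutions (C13T and A14G) out of 6 that separate it from Srp54c. Alms1-ps2 and Gm6627 each show 1 of several substitutions (both G13A). The Entpd4 and Gm4631 stretches are letter for letter those of Entpd4b and Gm2026, because the parts compared hold no difference to mark.

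Over their longest annotated transcripts, 8 of the 9 genes were matched for at least 90% of their length by transcripts of other genes at 95% identity or more. The matched share was 100% for Gm6627, Srp54b, Entpd4, Gm2606, Alms1-ps2, Gm7551 and Gm8607, and 96.9% for Gm7278. At 98% identity or more, Gm6627 fell to 33.6% and Gm7278 to 7.42%, so 6 of the 9 were matched over at least 90% of their length at this identity. Gm4631 was matched over 44.6% and is near-identical to other genes in part of its transcript only. Of the other 37 listed genes with an annotated transcript, 2 reached 90% of their length at 95% identity (Gm32256 and Ppp1r2-ps4). The median matched share of the 37 was 0%. At 90% identity, Gm14057 (100%), Hbb-bs (97.0%) and Gm8705 (91.9%) reached it too. Since the 9 were chosen for this resemblance, their contrast with the 37 follows from the choice. None of the 12 parent and sister genes looked up (Ewsr1, Srp54a, Srp54c, Entpd4b, Gapdh, Alms1, Alms1-ps1, Hnrnpa3, Gm2026, Odc1, Gm2075 and Eif1a) is among the 48 listed genes, so the level of a copy could not be added to that of its parent.

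The number of copies differed widely between the 9 genes. Gm2606, a processed pseudogene of Gapdh (the glycolytic enzyme glyceraldehyde-3-phosphate dehydrogenase), was matched over at least 90% of its length by 65 genes on 20 chromosomes, of which 61 are pseudogenes. Gm7551, a processed pseudogene of Hnrnpa3 (an RNA-binding protein of the hnRNP family), had 18 such genes on 11 chromosomes, 16 of them pseudogenes. Gm8607 had 17, all on its own chromosome 12 and between 55.2 and 644 kb away, of which 16 are annotated as protein-coding. Its closest match is Gm2075, and it is 93.3% identical to Eif1a, a translation initiation factor. The remaining genes had 2 copies or fewer at this length, and those of Srp54b, Entpd4 and Alms1-ps2 lie beside them. Srp54b has Srp54a at 39.7 kb and Srp54c at 40.6 kb, Entpd4 has Entpd4b at 188 kb, and Alms1-ps2 has Alms1-ps1 at 17.9 kb and Alms1 at 71.6 kb.

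The number of differing bases set these genes further apart. Entpd4 and Entpd4b differed at 0 of 3589 aligned bases, and Gm2606 and Gapdh at 1 of 1002. Srp54b differed from Srp54c by 6 substitutions and from Srp54a by 10 over about the same transcript of 3646 bases. In the other genes differences were more frequent: 23 of 2285 bases for Alms1-ps2 against Alms1, 12 of 1074 for Gm7551 against Hnrnpa3, and 6 of 431 for Gm8607 against Gm2075. Gm7278 differed from Odc1 (ornithine decarboxylase, which starts polyamine synthesis) at 46 of 1401 bases. Gm6627 differed from Ewsr1 (an RNA-binding protein) at 65 of 1997 aligned bases. These counts leave out gapped bases, of which Gm7278 had 27 against Odc1 and Gm6627 had 20 against Ewsr1. Alms1-ps2, Gm7551 and Gm8607 had 1 each in the comparisons above.

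**Figure D1:**
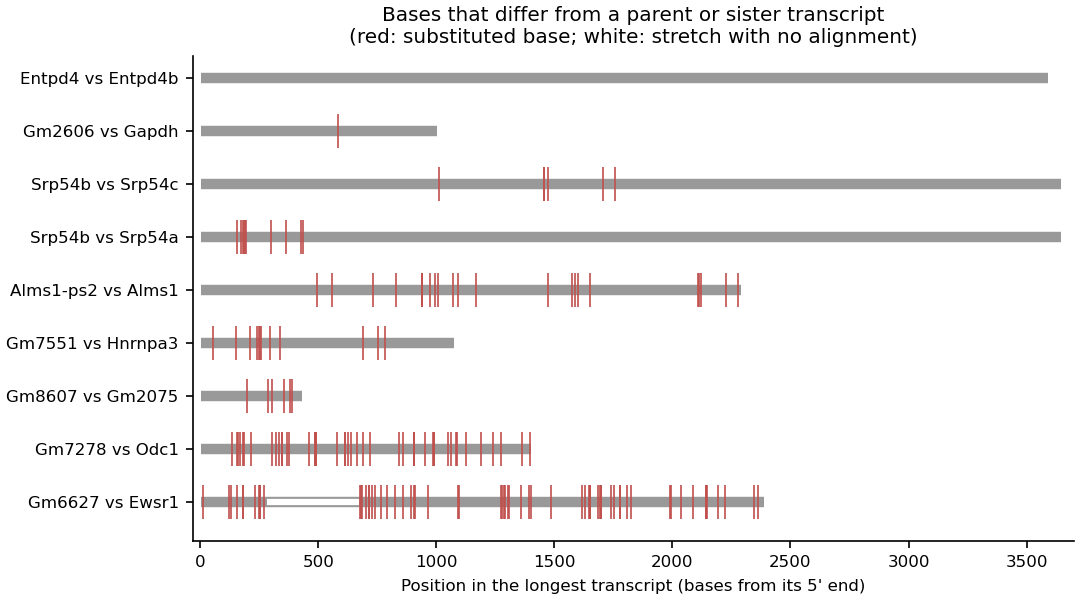
Each grey bar is the longest annotated transcript of a listed gene, drawn to scale in bases from its 5′ end, and each red line is a base that differs from the parent or sister named at the left; gapped bases are not drawn. Entpd4 has no red line against Entpd4b and Gm2606 has 1 against Gapdh, while Gm7278 has 46 and Gm6627 has 65, with a white stretch from base 283 to base 671 that did not align to Ewsr1.

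Srp54b lies between its sisters in sequence. Its 10 substitutions against Srp54a fall between bases 156 and 433, and its 6 against Srp54c between bases 1010 and 1758, so the substitutions against the sisters fall in separate stretches of the transcript. Windows of 150 bases were therefore searched in the transcripts of all other genes at once. Of those in the longest Srp54b transcript, 96.9% were found letter for letter elsewhere, and the 108 that were not started between bases 3172 and 3279. No substitution against either sister falls there. The alignments also held 6 gapped bases against Srp54a and 4 against Srp54c, whose positions are not given here. For Entpd4 all 3440 windows were found elsewhere (100%), and so were all 8304 distinct windows of its annotated transcripts together. For Gm2606 the share was 85.2%, and the 126 windows not found all covered base 583, the base that differs from Gapdh.

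The share of such windows was lower in the other 6 genes. It was 48.0% for Alms1-ps2, 40.2% for Gm7551, 36.5% for Gm4631, 33.3% for Gm8607, 14.8% for Gm6627 and 0% for Gm7278. Over the 9 genes the median was 40.2%, against 0% over 36 other listed genes, of which 28 were at 0%. At least 30% of windows were found elsewhere in 7 of the 9 and in 2 of the 36, Hbb-bs (58.7%) and Ppp1r2-ps4 (34.9%). Hbb-bs thus stood above each of the 6 genes of this paragraph. Because the 9 were chosen for such resemblance, a higher share among them follows from the choice, and nothing is read from these counts. No source used here gives the read length. With windows of 50 bases Gm7278 rose to 37.4% and Gm8607 to 70.9%.

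**Figure D2:**
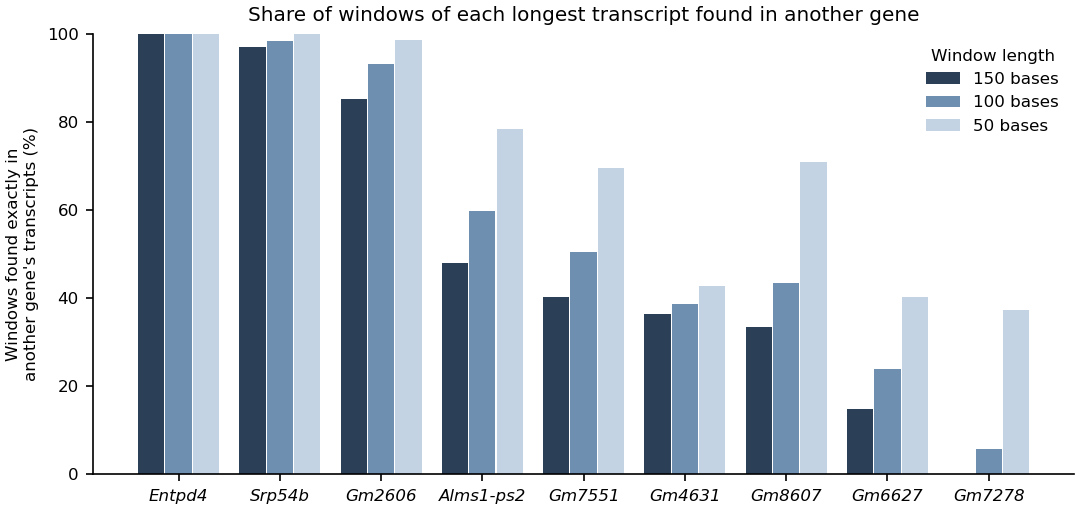
The bars give the percentage of windows of 150, 100 and 50 bases in the longest transcript of each of the 9 genes that occur letter for letter, on either strand, in an annotated transcript of another gene. Entpd4 stands at 100% for each length, Srp54b and Gm2606 follow at 96.9% and 85.2% for 150 bases, and Gm7278 is at 0% for 150 bases and 37.4% for 50.

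Part of the Gm6627 transcript is a tandem array. From base 243 to base 711, 469 bases repeat a unit of 39 bases 12.0 times, each base being the same as the base 1 unit earlier. No transcript of Ewsr1 holds such an array, whereas Gm7962, another pseudogene that resembles Gm6627, holds 6.95 units of the same length. Because windows within the array repeat, the share of Gm6627 windows found elsewhere fell from 14.8% to 2.61% when each distinct window was counted once. The first unit, on the minus strand of chr10:52343377-52343415, is shown because its repetition sets Gm6627 apart from Ewsr1.
Gm6627 unit: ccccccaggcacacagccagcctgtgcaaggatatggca

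Counted levels were low in all 4 libraries, and how reads that fit more than 1 gene were counted is not given. The libraries held between 29873090 and 39292645 reads in all, recovered from the deposited values, and it is not stated whether a read or a read pair was counted. Mean FPKM (reads scaled by the exon length of the gene and the total of the library) over the 4 libraries ranged from 0.0634 for Entpd4 to 2.55 for Gm6627, and 5 of the 9 genes were under 1 FPKM in every library, against 31 of all 48 listed genes. Summed over the 4 libraries, the reads ranged from 21 for Gm8607 to 819 for Gm6627. Both mimic libraries lay on one side of both control libraries for 6 of the 9 genes, all 5 lower genes and Alms1-ps2. Over all 48 listed genes this held for 93.8%, with 54.2% higher and 39.6% lower in both mimic libraries, and it held for each of the 39 listed genes outside the 9. Since these genes were selected on this contrast, nothing is read from either count. A two-sided exact permutation test of 2 libraries against 2 cannot go below 0.33.

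**Figure D3:**
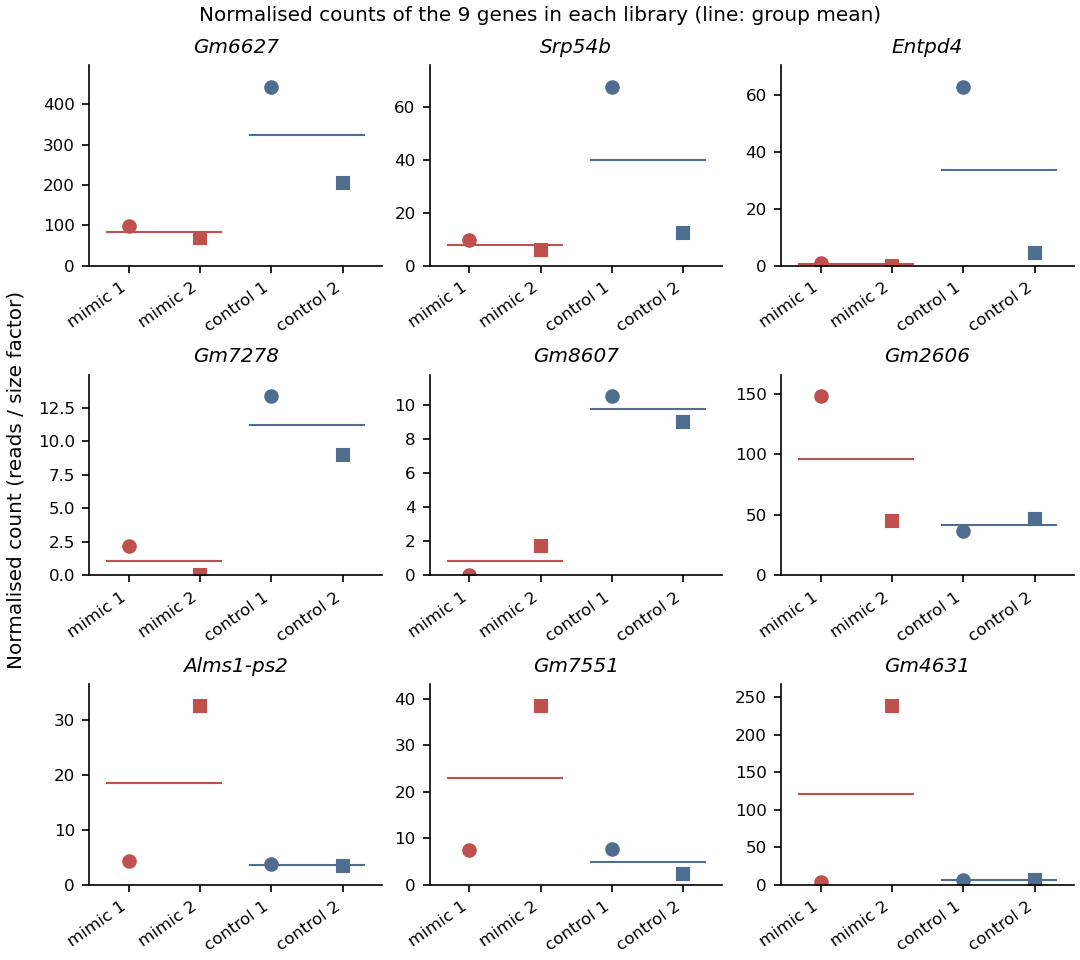
Each panel shows 1 of the 9 genes, with its normalised count (reads divided by the size factor of the library) in mimic replicates 1 and 2 (red) and control replicates 1 and 2 (blue) as points, and the group mean as a line; the vertical scales differ and start at 0. Control replicate 1 is the highest library in all 5 lower genes, while mimic replicate 2 stands alone in Alms1-ps2, Gm7551 and Gm4631 and mimic replicate 1 in Gm2606.

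Among the lower genes Gm6627 had the most reads. This processed pseudogene (GRCm38 chromosome 10, 52341272 to 52343657, minus strand, 2386 exonic bases) lies within Gopc, on the same strand, without touching its exons. Mimic replicates 1 and 2 had 90 and 81 reads and control replicates 1 and 2 had 465 and 183, or 97.2 and 69.3 against 444 and 206 normalised counts. All control values lay above the mimic values, but the control replicates differed by 2.15 times, with an exact 95% interval of their read ratio from 1.81 to 2.57, and the mimic replicates by 1.40 times (1.03 to 1.92). The group means were 83.2 ± 19.7 (mimic) and 325 ± 168 (control) normalised counts (SD, n = 2 each), a ratio of 3.90, which was 2.47 without control replicate 1. Here and throughout, read ratios are scaled by size factors. Their intervals are Clopper-Pearson intervals that take each read as an independent draw, so they cover counting error alone. No source used here says whether PCR copies of a molecule were counted as separate reads. If they were, the intervals are too narrow.

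Srp54b encodes a copy of the GTPase subunit of the signal recognition particle, which brings ribosomes making secreted and membrane proteins to the endoplasmic reticulum. The gene (chromosome 12, 55155104 to 55189573, plus strand, 4513 exonic bases) had 9 and 7 mimic reads in replicates 1 and 2, and 71 and 11 control reads. Control replicate 2, at 12.4 normalised counts, was closer to the mimic replicates at 9.72 and 5.99 than to control replicate 1 at 67.7. The control replicates differed by 5.47 times (exact 95% interval of the read ratio 2.88 to 11.5). The group means of 7.85 ± 2.64 and 40.1 ± 39.1 normalised counts (SD, n = 2 each) gave a ratio of 5.10, and 1.58 without control replicate 1 against 8.63 without control replicate 2.

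Entpd4 encodes an enzyme of Golgi and lysosomal membranes that removes phosphate from nucleotides. The gene (chromosome 14, 69337174 to 69367270, plus strand, 8074 exonic bases) had 1 and 0 mimic reads, and 66 and 4 control reads. Control replicate 1 alone held 91.9% of its normalised counts, at 63.0 against 4.50 in control replicate 2. These replicates differed by 14.0 times (exact 95% interval 5.21 to 52.9). With the reads of each group pooled, control reads outnumbered mimic reads by 75.7 times (exact 95% interval 13.1 to 3032). This ratio and its interval leave out the spread between libraries. The group means were 0.540 ± 0.763 and 33.7 ± 41.3 normalised counts (SD, n = 2 each), a ratio of 62.5 that fell to 8.34 without control replicate 1 and was 117 without control replicate 2 and 31.2 without mimic replicate 2. Exons of Entpd4 also overlap those of the opposite-strand genes Gm16867 and Gm27221, and the counting is not stated to use strand.

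Gm7278 and Gm8607 had the fewest reads of the 9 genes and the closest control replicates among the lower ones. Gm7278, a processed pseudogene of Odc1 (chromosome 1, 152729159 to 152730559, minus strand, 1401 exonic bases), lies within Rgl1 on the same strand, outside its exons. Its reads were 2 and 0 (mimic) and 14 and 8 (control), or 1.08 ± 1.53 against 11.2 ± 3.08 normalised counts (SD, n = 2 each). The ratio of the pooled reads was 11.9, and without mimic replicate 2 the ratio of means went from 10.4 to 5.18. Gm8607, an unprocessed pseudogene (chromosome 12, 88139363 to 88139793, minus strand, 431 exonic bases), had 0 and 2 mimic reads, and 11 and 8 control reads. Its means were 0.856 ± 1.21 and 9.75 ± 1.06 normalised counts (SD, n = 2 each). The ratio of the pooled reads was 10.3 (2.48 to 91.0), and without mimic replicate 1 the ratio of means went from 11.4 to 5.70. The control replicates differed by 1.48 times in Gm7278 (0.581 to 4.08) and by 1.17 times in Gm8607 (0.427 to 3.34), so a difference between them was not detectable at this depth.

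Of the higher genes, Gm2606 was high in 1 of the 2 mimic libraries. This processed pseudogene (chromosome 15, 12574889 to 12575890, plus strand, 1002 exonic bases) lies within Pdzd2, on the opposite strand and outside its exons. Its reads were 137 and 52 (mimic) and 38 and 41 (control). In normalised counts, mimic replicate 1 stood at 148, whereas mimic replicate 2, at 44.5, lay between the control values of 36.3 and 46.1. The mimic replicates differed by 3.32 times (exact 95% interval 2.40 to 4.67) and the control replicates by 1.27 times (0.798 to 2.03). The group means were 96.2 ± 73.1 and 41.2 ± 6.98 normalised counts (SD, n = 2 each), a ratio of 2.34 that came to 1.08 when mimic replicate 1 was left out and to 3.59 when mimic replicate 2 was.

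In the other 3 higher genes mimic replicate 2 held most of the counts. Alms1-ps2 is a transcribed unprocessed pseudogene (chromosome 6, 85774393 to 85804057, plus strand, 2421 exonic bases) of Alms1, whose protein sits at centrosomes and the base of cilia. Its reads were 4 and 38 (mimic) and 4 and 3 (control). Mimic replicate 1, at 4.32 normalised counts, was near the control values of 3.82 and 3.37, and mimic replicate 2 stood at 32.5. The mimic replicates differed by 7.53 times (exact 95% interval 2.71 to 29.0). The group means were 18.4 ± 19.9 and 3.60 ± 0.312 normalised counts (SD, n = 2 each), a ratio of 5.12, and 1.20 without mimic replicate 2 against 9.04 without mimic replicate 1.

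Gm7551 (chromosome 7, 65784859 to 65785932, plus strand, 1074 exonic bases) had 7 and 45 mimic reads, and 8 and 2 control reads. Mimic replicate 1, at 7.56 normalised counts, lay just under control replicate 1 at 7.63, so the groups overlapped. The mimic replicates differed by 5.10 times (exact 95% interval 2.28 to 13.4), and the control replicates by 3.39 times (0.677 to 32.8). The group means of 23.0 ± 21.9 and 4.94 ± 3.81 normalised counts (SD, n = 2 each) gave a ratio of 4.66. Leaving out mimic replicate 2 brought it to 1.53, and leaving out mimic replicate 1, control replicate 1 or control replicate 2 brought it to 7.79, 10.2 or 3.02.

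Gm4631 is a protein-coding gene in a cluster of zinc finger genes on chromosome 2 (175321955 to 175338197, minus strand, 4402 exonic bases in 5 exons). Its reads were 3 and 279 (mimic) and 6 and 5 (control). Mimic replicate 1, at 3.24 normalised counts, was below the control replicates at 5.72 and 5.62, and mimic replicate 2 stood at 239. The mimic replicates differed by 73.7 times (exact 95% interval 25.0 to 360), while the control replicates differed by 1.02 times (0.259 to 4.22). The group means were 121 ± 167 and 5.67 ± 0.0703 normalised counts (SD, n = 2 each). The log2 ratio of mimic to control was 4.19 with a pseudocount of 1 normalised count, 5.17 without mimic replicate 1 and -0.65 without mimic replicate 2, so its direction rests on mimic replicate 2.

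The Gm4631 transcript holds a shared coding part and a longer part after it that is shared only in places. Its coding part, bases 118 to 1611, is identical to Gm2026 in the same cluster, with 0 differences over 1497 aligned bases, and Gm4724, Gm14434 and Gm14308 match 36.7% of the transcript at 100% identity. Of its 39 matching genes, 32 lie on chromosome 2, between 34.2 and 2730 kb away. The 2702 windows of 150 bases that were not found elsewhere all reach into the 2791 bases after the coding part. Some other windows that reach there were found elsewhere. Over the whole transcript the matched share was 44.6% at 95% identity and 60.1% at 90%. Which of the parts the 279 reads came from cannot be told from 1 value per gene and library.

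**Figure D4:**
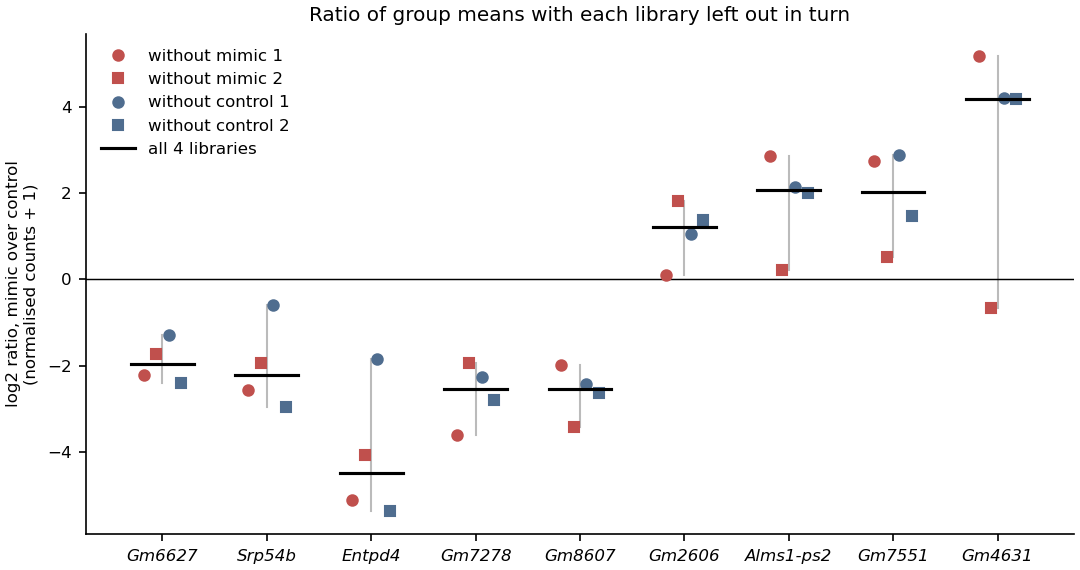
For each of the 9 genes the black line is the log2 ratio of the mimic mean to the control mean (normalised counts, pseudocount 1) with all 4 libraries, and the points give it with 1 library left out (red for mimic, blue for control; circles for replicate 1, squares for replicate 2). Without mimic replicate 2, Gm4631 moves from 4.19 to -0.65, Alms1-ps2 from 2.08 to 0.21 and Gm7551 from 2.02 to 0.53, and without control replicate 1, Entpd4 moves from -4.50 to -1.84.

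With each read taken as independent, the replicates of at least 1 group differed beyond counting error in 7 of the 9 genes. The criterion was an exact 95% interval of the read ratio wholly above 1, and Gm7278 and Gm8607 were the exceptions. In Gm6627 this held in both groups. The same held for 10 of the 35 other listed genes whose reads were recovered as whole numbers within 0.01. More reads give a narrower interval, and the median reads per gene were 71 over the 9 and 47 over the 35. For the larger of the mimic and control replicate differences, the median absolute log2 ratio was 2.21 over the 9 genes and 0.95 over the other 35. The library with the most normalised counts held a median of 68.8% of a gene's total over the 9 genes, from 49.5% for Gm8607 to 94.2% for Gm4631, against 51.7% over the other 35. These medians are descriptions of chosen genes, and no test was made of their difference.

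Among the higher genes, the library with the most counts was mostly mimic replicate 2 for the 9 genes and mimic replicate 1 for the other listed genes, and this difference was not tested. Control replicate 1 was the highest for all 5 lower genes of the 9, and for 8 of the 13 lower genes among the other 35, with control replicate 2 highest for the other 5. Mimic replicate 2 was highest for 3 of the 4 higher genes of the 9, and mimic replicate 1 for Gm2606. Among the 22 higher genes of the other 35 the order was the reverse, with mimic replicate 1 highest for 16 and mimic replicate 2 for 6. Without their highest library, the ratio of means fell by more than 1.5 times in 7 of the 9 genes, all but Gm7278 and Gm8607. Leaving out that library can only lower the ratio. The same was not computed for the other listed genes, so this count cannot be called particular to the 9.

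The replicate difference and the share of copied windows were both high in some of the 9 genes but did not keep the same order. Entpd4, with 100% of windows found elsewhere, had a larger replicate difference of 3.54 on the log2 scale (normalised counts, pseudocount 1), and Srp54b, with 96.9%, one of 2.36. Gm4631, with 36.5%, had the largest of the 9 at 5.82. Gm2606, with 85.2%, stood at 1.71, close to Gm7278 at 1.66 with 0%. Whether reads moved between a gene and its copies in any library was not tested, since no parent or sister gene is among the values analysed.

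**Figure D5:**
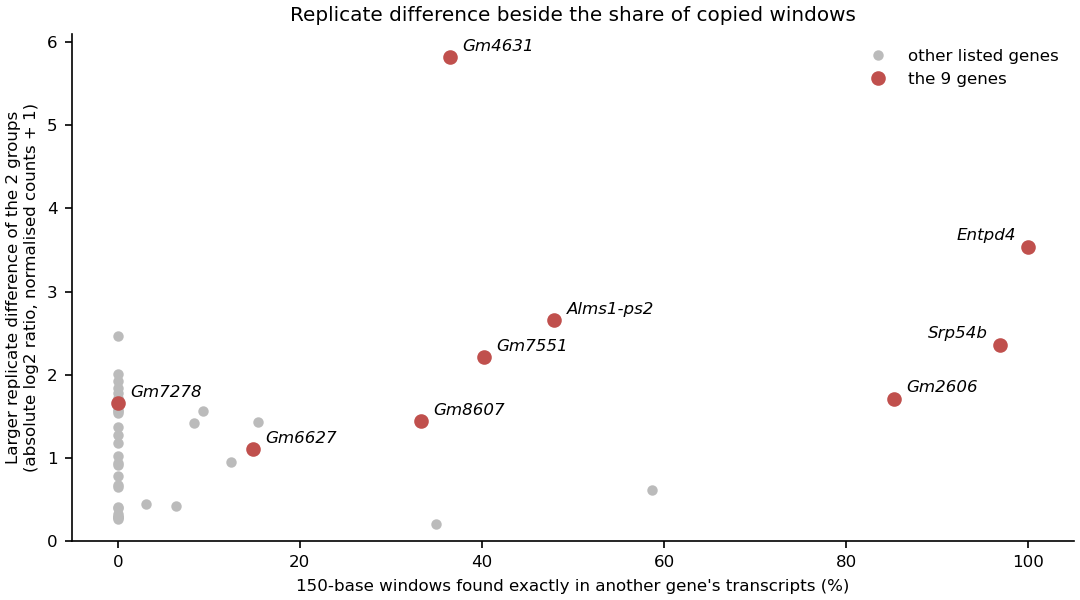
Each point is a listed gene with recovered reads, the 9 genes in red and the other genes in grey; the horizontal axis is the percentage of 150-base windows found exactly in another gene and the vertical axis the larger absolute log2 ratio between replicates of a group (normalised counts, pseudocount 1). Gm4631 is highest at 5.82 with 36.5% of windows found elsewhere and Entpd4 lies at 100% and 3.54, while most grey points are at 0% and below 2.5.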

How the data were processed

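RNA was sequenced from 2 mimic and 2 control samples of HT22 cells, grouped by the sample titles. The authors selected polyadenylated RNA with oligo(dT) beads and sequenced paired ends, and they used HISAT2 to align the filtered reads and DESeq2 to compare groups, tools that the submitters' processing notes list too. Read length, counter, build, annotation and versions: not given in the sources used here. What was deposited gave the authors' FPKM per library, whose unit was read from the numbers, a mean normalised count signal per group, and the authors' own fold changes and p-values, which were not used.

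Each FPKM was multiplied by union exon length (GENCODE M21, GRCm38) and a library total found by search. This gave whole reads within 0.01 in all libraries for 44 of 48 genes, the 9 genes included. Totals were 31147478 and 39292645 (mimic replicates 1 and 2) and 35050806 and 29873090 (control replicates 1 and 2), and 1 read in a gene of 1 kilobase was worth 0.0255 to 0.0335 FPKM. Size factors of 0.926, 1.17, 1.05 and 0.889, in the same order, were fitted by least squares to the deposited group means. They returned those means within 0.0054. The search was tested on simulated libraries of 46 genes and returned 4 of 4 totals. Normalised counts are reads divided by size factors.

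Transcripts were compared with blastn 2.17.0 (95% identity, at least 50 bases) and by exact windows against 141767 annotated transcripts; the planned search of the whole genome was not made, and windows hit antisense transcripts too. Python 3.11.15 with scipy 1.17.1 gave exact intervals. All 9 genes, their parents and sisters, and the other listed genes matched over 90% are named. The members and lists were chosen with earlier results of these data known. Other scales, pseudocounts, identities and window lengths and the removal of each library were tried as alternatives.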

Additional observations from a re-analysis of the deposited data

How the results depend on the processing

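Leaving out each library in turn, the log2 ratio reversed in 1 of 36 combinations of gene and library. For Gm4631 it ranged from -0.65 without mimic replicate 2, a reversal, to 5.17 without mimic replicate 1, and it moved to -1.84 for Entpd4 without control replicate 1. Under the 5 other settings of each gene (FPKM, reads scaled by library totals, pseudocounts of 0.1 and 5, replicate block), 0 of 45 values reversed, and Gm8607 moved to -1.33 with a pseudocount of 5. A kept direction does not mean a kept size. As given above, leaving out the highest library, which can only lower the ratio, lowered it by more than 1.5 times in 7 of the 9 genes. No such count was made for the other listed genes. The count of separated genes was 6 on either scale. A minimum of 20 reads dropped 0 of the genes, so it could not change this count, and the counts of 7 to 8 with 1 library left out could not be lower by construction, since fewer libraries have to be separated. Over all bases of the 9 longest transcripts, other genes matched 87.7% at 95% identity, 73.1% at 98% and 91.3% at 90%. Of all windows, 57.9% were found elsewhere at 150 bases, 62.3% at 100 and 71.4% at 50.

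The replicate numbers are shared between groups, but no label says that a number marks a common day or batch. Without a test there was no call for a block to change. The mean of the pair log2 ratios (replicate block), which is the same whichever way the libraries are paired, was -1.87 for Gm6627, -1.81 for Srp54b, -3.70 for Entpd4, -2.75 for Gm7278, -2.70 for Gm8607, 0.97 for Gm2606, 1.54 for Alms1-ps2, 1.80 for Gm7551 and 2.26 for Gm4631. The summed level of a gene with its parent or sister, on either scale, was not run because none of them is listed, and neither was the search for seed matches of the microRNA. At 21 to 98 reads, Gm8607, Gm7278, Alms1-ps2, Gm7551, Entpd4 and Srp54b have wide counting intervals.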

Other observations

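Outside the 9 genes, 2 listed genes were matched over at least 90% of their transcript by other genes, both processed pseudogenes. Ppp1r2-ps4 (GRCm38 chromosome 9, 66805306 to 66805938) is matched by Ppp1r2-ps2 at 97.5% identity and by its parent Ppp1r2, an inhibitor of protein phosphatase 1, at 96.7%, and 34.9% of its windows of 150 bases were found elsewhere. Its reads were 37 and 47 (mimic) and 94 and 69 (control), and the libraries of the groups did not overlap. Its replicates were closer than those of most of the 9 genes, differing by 1.01 times with the mimic and 1.16 times in the control. The group means were 40.1 ± 0.193 and 83.7 ± 8.53 normalised counts (SD, n = 2 each), a ratio of 2.09. Gm32256 (chromosome 19, 16715799 to 16716261), a copy of the ribosomal protein gene Rps27a at 96.0% identity, had 9 and 4 mimic reads and 0 in both control libraries.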
